A study of Bos taurus with 16 samples.

Results

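PDZK1 encodes a scaffold that anchors membrane proteins at the free surface of epithelial cells, and its transcript was read by 1 of the 24128 probe sets on an Affymetrix bovine genome array. That probe set is the only one whose single gene symbol in the platform annotation is PDZK1, and all 16 arrays carry a value for it. The gene was chosen because its level at insemination differed between inflamed and healthy endometrium, so that difference is given here as a description, with no test. RefSeq lists NHERF-3 as another name and places the gene on cattle chromosome 3.

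Endometrial cells were collected by cytobrush from 49 superovulated cows, 2 h before insemination on day 0 and again just before the uterus was flushed on day 7. A sample counted as subclinical endometritis (SE), an inflamed uterus in a cow with no visible discharge or illness, when the brush held polymorphonuclear cells (neutrophils), and as healthy endometrium (HE) when it held 0. Brush samples were pooled by the status found on the day of sampling, giving 3 SE and 3 HE pools on day 0 and 3 SE and 2 HE pools on day 7. Blastocysts flushed on day 7 were pooled by their donors' status at flushing, 10 embryos to a pool, giving 3 pools from SE donors and 2 from HE donors. All donors had been superovulated, HE ones included, and a cow's status could differ between the 2 days. Replicates are pools, and the p-values therefore reflect how pools vary, not how cows vary.

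PDZ domains are small folds that grip the tail ends of other proteins. PDZK1 carries several of them in a row and is best known, in kidney, intestine and liver of rodents and humans, for holding transporters and the lipoprotein receptor SCARB1 at the cell surface, where ezrin-type linkers join such complexes to the actin of microvilli. In human breast cancer cells PDZK1 is also known as a gene that oestrogen switches on. Oestrus, on day 0, is the part of the cycle when oestrogen is high, and by day 7 progesterone from the corpus luteum prevails.

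Levels are GCRMA signals on the log2 scale, so a difference of 1 is a 2-fold change. Median signals over all probe sets ran from 4.18 to 4.30 across the endometrium arrays and from 3.08 to 3.12 across the blastocyst arrays. The lowest value was 0.571 in endometrium and 2.20 in blastocysts, and no level was compared between these tissues. The brush samples carried epithelial markers, 8 of 9 above the filter on low values, with KRT8 below it. Markers of other cell types passed there too: 8 of 8 stromal, 6 of 6 lymphocyte and 5 of 5 macrophage markers. So did 3 of 5 neutrophil, 3 of 4 ciliated cell and 1 of 5 endothelial markers. The blastocyst pools carried trophectoderm markers (KRT18, IFNT2, KRT8 and PAG2, 4 of 4 on the array) and the inner cell mass genes POU5F1 and SOX2. In these pools 0 of the neutrophil, macrophage and ciliated cell markers passed the filter. However, 3 of 8 stromal (PDGFRA, MGP and COL1A2), 1 of 6 lymphocyte (LCK) and 2 of 5 endothelial markers (PECAM1 and TEK) did pass.

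On day 0 the 3 SE pools had PDZK1 log2 signals of 6.75, 6.67 and 6.92, against 8.98, 8.44 and 8.94 in HE. Every SE pool lay below every HE pool, and the highest SE value stood 1.53 log2 units, or 2.88-fold, under the lowest HE value. The means were 6.78 ± 0.13 in SE and 8.79 ± 0.30 in HE endometrium (SD, n = 3 each). The difference was -2.01 on the log2 scale (limma standard error 0.19), a 4.03-fold lower signal in SE. By the size of the fall PDZK1 ranked 7 of the 13421 probe sets kept in endometrium, and 30 had a larger difference in either direction. The median absolute difference over all of them was 0.168. In this contrast limma called 0.0149% of probe sets higher and 0.00745% lower in SE, at a Benjamini-Hochberg adjusted p under 0.05. In brush samples, fewer PDZK1-expressing cells and less PDZK1 RNA per cell cannot be told apart.

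On day 7 PDZK1 was well above its day 0 level in both groups, and the SE and HE pools no longer stood apart. The SE pools read 13.30, 13.35 and 13.01, against 12.87 and 13.32 in the HE pools. The groups overlapped: 1 HE pool lay within the SE values and the other just under them. The means were 13.22 ± 0.18 in SE (SD, n = 3) and 13.10 ± 0.31 in HE endometrium (SD, n = 2). SE minus HE was 0.13 (standard error 0.21; limma adjusted p = 1, unadjusted p = 0.566, by limma over all kept probe sets). Its 95% interval ran from -0.35 to 0.60, which spans a signal from 0.785 to 1.52 times that of HE. It therefore does not reach a difference of the size seen on day 0, which chose the gene and may be overstated. No probe set was called in either direction on day 7 (0% higher and 0% lower), while 477 of 13421 had an unadjusted p under 0.05.

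**Figure D1:**
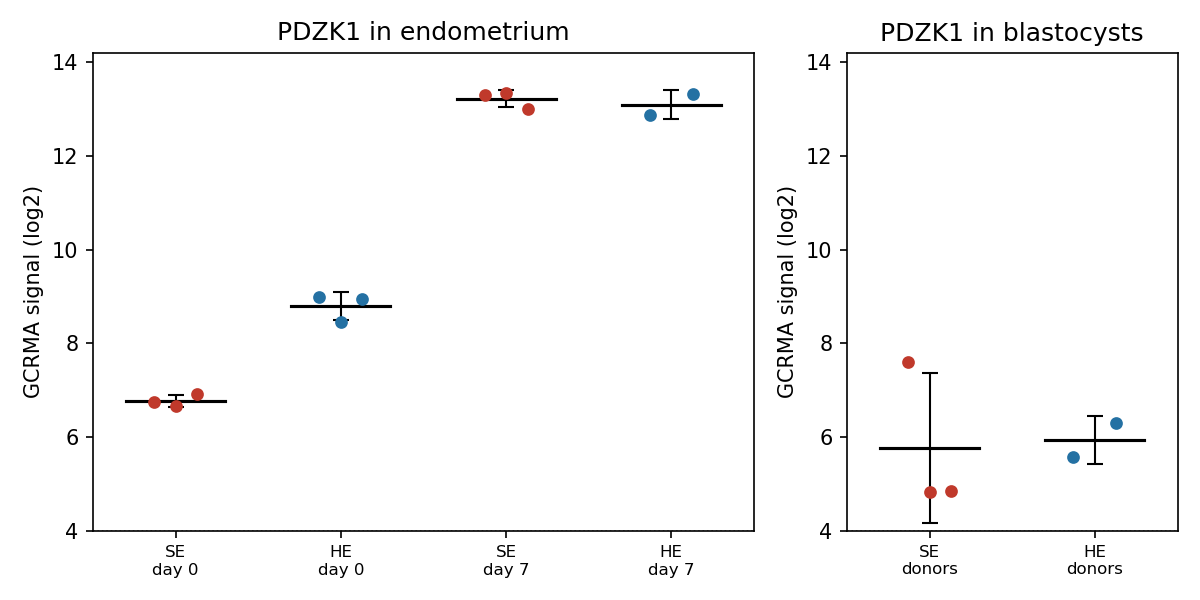
PDZK1 signal in each pool (GCRMA, log2), with endometrium by status and day on the left and blastocysts by donor status on the right. Points are arrays, horizontal bars are group means and whiskers are 1 SD. The SE pools of day 0 lie between 6.67 and 6.92, below all HE pools of that day, and all 5 pools of day 7 lie above 12.8.

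PDZK1 rose steeply in both SE and HE endometrium between insemination and day 7. In SE endometrium it averaged 13.22 ± 0.18 on day 7, against 6.78 ± 0.13 on day 0 (SD, n = 3 each). That is a rise of 6.45 (standard error 0.19; 95% interval 6.02 to 6.87; limma adjusted p = 2.1e-08), or 87.2-fold. In HE endometrium it averaged 13.10 ± 0.31 on day 7 (SD, n = 2), against 8.79 ± 0.30 on day 0 (SD, n = 3). The rise there was 4.31 (standard error 0.21; 95% interval 3.83 to 4.78; limma adjusted p = 5.29e-07), or 19.8-fold. The lowest day 7 pool exceeded the highest day 0 pool by 6.10 in SE and by 3.89 in HE.

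Changes between the days were common, so a call alone sets no gene apart. Between days limma called 26% of probe sets higher and 24.1% lower on day 7 in SE endometrium, and 21.8% higher and 23.2% lower in HE endometrium. By the size of the rise PDZK1 ranked 19 of 13421 probe sets in SE endometrium and 121 in HE endometrium. The median absolute change was 0.595 in SE and 0.588 in HE endometrium. The SE and HE changes rest on the same day 0 arrays that the gene was chosen on. That choice may overstate the SE rise and understate the HE rise, and the p-values and intervals do not allow for it.

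The rise was larger in SE than in HE endometrium by 2.14 (standard error 0.29), which is the SE minus HE difference of day 7 less that of day 0. No p is given for it, because it holds the difference that chose the gene. Over all probe sets, PDZK1 included, 0 of 13421 passed the test of status by day, and 526 had an unadjusted p under 0.05. The levels ordered from low to high are SE on day 0, HE on day 0, HE on day 7 and SE on day 7, and only the last pair overlaps.

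**Figure D2:**
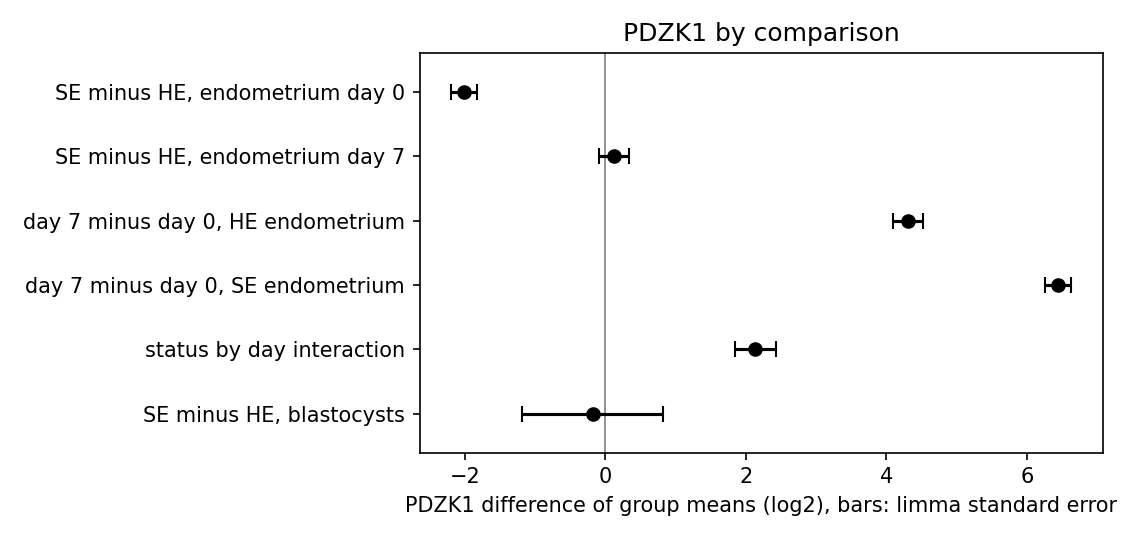
Difference of PDZK1 group means for each comparison (log2), with bars of 1 limma standard error. The 2 changes between days are the largest, 6.45 in SE and 4.31 in HE endometrium, and the SE minus HE differences of day 7 and of blastocysts lie within 1 standard error of 0.

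PDZK1 varied between endometrium pools of a group by an SD of 0.232, and 41.4% of kept probe sets varied less. In blastocysts the corresponding SD was 1.34, and 98.7% of kept probe sets varied less. The pools from SE donors read 7.61, 4.83 and 4.84, against 5.58 and 6.30 in the pools from HE donors. One SE pool lay above both HE pools and the other 2 SE pools lay below both. The means were 5.76 ± 1.60 for SE donors (SD, n = 3) and 5.94 ± 0.51 for HE donors (SD, n = 2). The difference of -0.18 (standard error 1.01; limma adjusted p = 0.961, unadjusted p = 0.866) had a 95% interval from -2.87 to 2.51. Differences as large as that of day 0 endometrium therefore lie inside it in either direction. No probe set was called between the blastocyst groups (0% higher and 0% lower), while 1029 of 11014 had an unadjusted p under 0.05.

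The high blastocyst value came from SE replicate 1, which stood apart in some genes that are abundant in endometrial secretory epithelium, picked here after the values were seen. LTF, the antimicrobial protein lactoferrin, read 7.06 in that pool, against 2.24 and 3.32 in the other SE pools and 2.20 in both HE pools. AGR2, a chaperone of mucus-secreting cells, read 5.21 there, against 2.34 in each of the other 4 pools. MUC1, a membrane mucin, read 4.61 there and 3.45 elsewhere. LPL, an enzyme of fatty acid release that was abundant in brush samples on day 7 and not on day 0, was also high there. It read 5.19 in that pool, against 2.83 and 2.87 in the other SE pools and 2.42 in both HE pools. Other genes abundant in day 7 brush samples were not raised in that pool: TFF3, a mucus-associated peptide, and ANPEP lay at the lowest value, 2.20, on all 5 blastocyst arrays. CST6 read 2.83, against 2.83 and 3.10 in the other SE pools. The epithelial marker list, shared by trophectoderm, summed to 86.6 in that pool, 82.9 and 82.3 in the other SE pools, against 80.6 and 79.5 for HE donors. Trophectoderm markers summed to 41.4 in that pool, also the highest, while the inner cell mass sum of 16.3 was the lowest. The part of these values in the PDZK1 difference was not tested. Without that pool SE minus HE was -1.10 (limma adjusted p = 0.614).

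The genes around PDZK1 were described through lists of its known partners and settings, each gene by its kept probe set of highest mean. These 5 lists name 77 genes, of which 54 were on the array and 38 passed the filter in endometrium. The members were chosen with earlier results of these data known, and their counts are set beside the share of all probe sets called, given above for each contrast. None of the 38 was called between SE and HE on day 0 or day 7, where 2 and 3 had an unadjusted p under 0.05. Between days 10 rose and 19 fell in SE endometrium and 11 rose and 12 fell in HE endometrium. None of the 38 was called for a difference between those changes.

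Among the 6 measured scaffold and linker genes, the PDZK1-interacting protein and one ezrin relative moved most. PDZK1IP1, a small membrane protein that binds PDZK1 in human cells, read 10.58, 11.15 and 11.19 in SE endometrium on day 7, against 6.89, 5.98 and 6.88 on day 0. In HE endometrium it read 11.02 and 11.02 on day 7, against 6.07, 6.56 and 7.39 on day 0. It rose by 4.39 in SE (adjusted p = 5.4e-06) and by 4.34 in HE endometrium (adjusted p = 1.74e-05, limma for both), with no overlap between days. Unlike PDZK1, its day 0 pools overlapped between SE and HE. In blastocysts it lay at the lowest value, 2.20, on all 5 arrays.

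MSN, the ezrin relative moesin, averaged 6.91 ± 0.90 in SE endometrium on day 7, against 9.21 ± 0.39 on day 0 (SD, n = 3 each). In HE endometrium it averaged 6.98 ± 0.50 on day 7 (SD, n = 2), against 9.18 ± 0.14 on day 0 (SD, n = 3). It fell in both, by 2.30 in SE (adjusted p = 0.000912) and by 2.20 in HE (adjusted p = 0.0028). AKAP10, which tethers protein kinase A and binds PDZK1, rose by 0.79 in SE (adjusted p = 0.00347) and by 0.54 in HE (adjusted p = 0.0415). EZR (ezrin) fell by 0.52 and the sister scaffold NHERF1 fell by 0.62 in SE endometrium (adjusted p = 0.0339 and 0.0402). In HE endometrium their differences were -0.28 and -0.42 (adjusted p = 0.29 and 0.197), and RDX, radixin, was called in neither. The list's median change was -0.16 in SE and -0.08 in HE, beside 0.01 and -0.03 over all probe sets.

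Of 19 listed cargo proteins, 7 were on the array and 5 were measured in endometrium. SLC15A1, the apical uptake carrier for small peptides, read 4.98, 4.79 and 5.88 in SE endometrium on day 7, against 3.33, 3.36 and 3.33 on day 0. In HE endometrium it read 5.78 and 4.98 on day 7, against 3.29, 3.57 and 4.03 on day 0. Its day 0 means, 3.34 in SE and 3.63 in HE, lay under the filter at log2 4. It rose by 1.88 in SE (adjusted p = 0.000679) and by 1.75 in HE (adjusted p = 0.00246). SCARB1, the high-density lipoprotein receptor whose level in mouse liver depends on PDZK1, ran the other way. It averaged 4.21 ± 0.0048 in SE endometrium on day 7, against 6.16 ± 0.93 on day 0 (SD, n = 3 each), a fall of 1.94 (adjusted p = 0.00193). In HE endometrium it averaged 4.35 ± 0.34 on day 7 (SD, n = 2), against 6.19 ± 0.28 on day 0 (SD, n = 3), a fall of 1.85 (adjusted p = 0.00575).

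SLC22A5, the carnitine carrier, fell by 1.11 in SE (adjusted p = 0.00441) and by 0.89 in HE endometrium (adjusted p = 0.0253). SLCO1A2, an organic anion carrier, was called in neither. The 2 measured probe sets of CFTR, the apical chloride channel, disagreed. The brighter one differed by -0.12 in SE and -0.35 in HE (adjusted p = 0.538 and 0.138). The other fell by 5.79 in SE and by 4.97 in HE (adjusted p = 6.37e-09 and 4.02e-08). Day 0 differences between SE and HE over the measured cargo genes ran from -0.29 to 0.10, with a median of -0.03, beside -0.06 over all probe sets. The scaffold and linker genes ran from -0.25 to 0.03 and PDZK1 stood at -2.01.

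**Figure D3:**
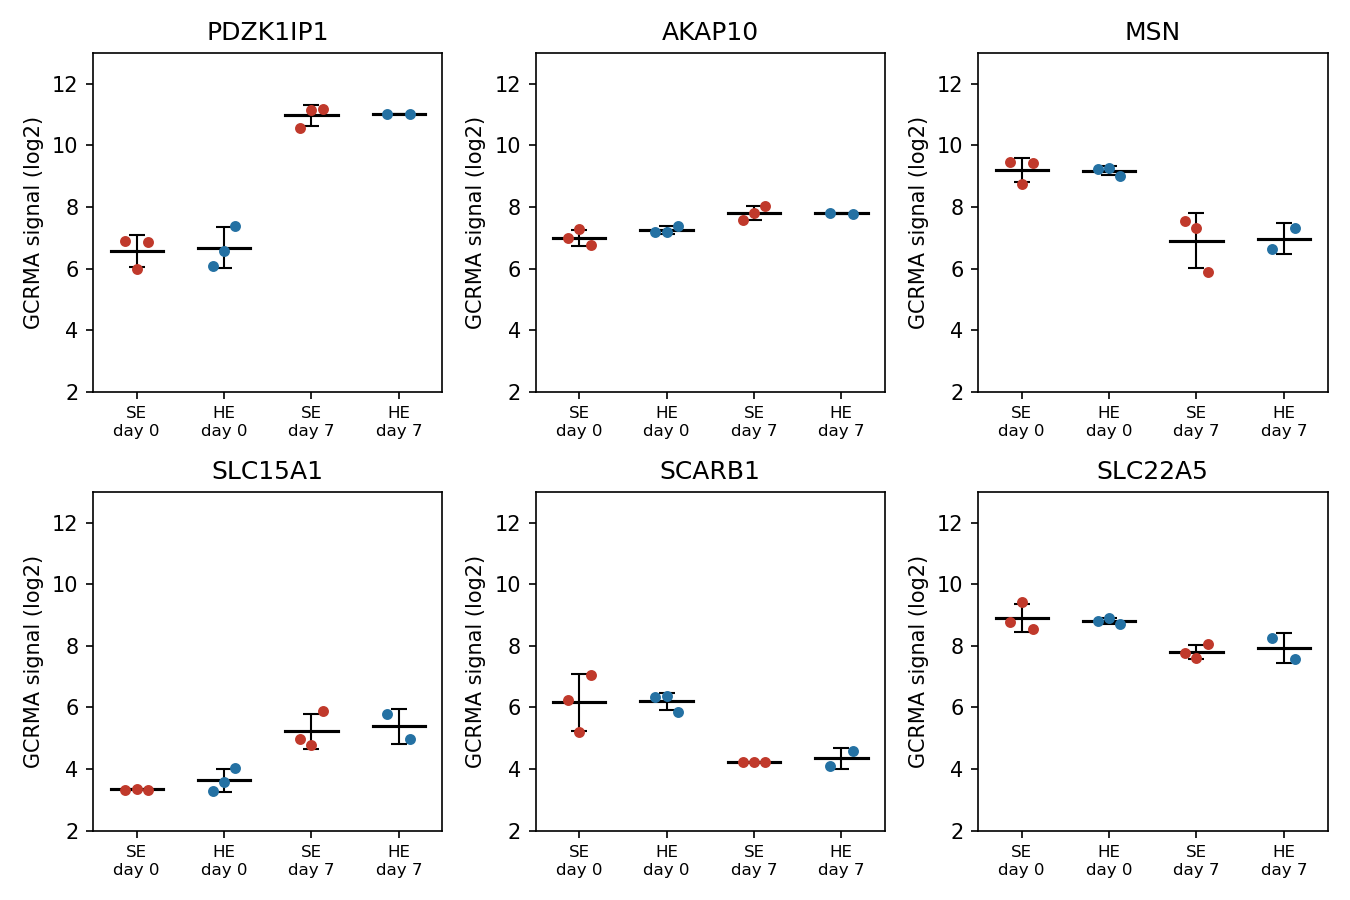
Signals of 6 measured partners and cargo proteins of PDZK1 in each endometrium pool (GCRMA, log2), by status and day. Points are arrays, bars are means and whiskers are 1 SD. PDZK1IP1, AKAP10 and SLC15A1 are higher on day 7, MSN, SCARB1 and SLC22A5 are lower, and on each day the SE and HE pools overlap for all 6 genes.

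Microvillus genes moved in both directions between the days. ANPEP, the peptide-trimming enzyme of brush borders, read 12.37, 12.39 and 12.05 in SE endometrium on day 7, against 3.69, 6.14 and 3.20 on day 0. In HE endometrium it read 12.42 and 12.87 on day 7, against 3.29, 3.27 and 6.63 on day 0. Its rise of 7.93 in SE and 8.25 in HE (adjusted p = 6.84e-05 and 0.000146) was larger than that of PDZK1, and 1 pool of each day 0 group stood well above the other 2. Those other pools lay under the filter at log2 4, so the size of the ANPEP rise depends on the low end of the scale. EPS8, which caps and bundles actin, rose by 2.23 in SE and 2.26 in HE, and ALPL, an alkaline phosphatase, rose by 1.56 in SE and 1.32 in HE. DPP4, another surface peptidase, fell by 2.34 in SE and by 3.98 in HE endometrium, and the adjusted p of these 3 genes was at most 0.00545. MYO1A, a brush-border myosin, fell by 2.22 and MUC1 fell by 1.88 in SE endometrium. Their HE differences of -1.39 and -1.05 did not pass (adjusted p = 0.0695 and 0.128). Of 7 measured members, 3 rose and 3 fell in SE, beside 26% and 24.1% of all probe sets. In HE 3 rose and 1 fell, beside 21.8% and 23.2% of all probe sets.

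PDZK1 was lower on day 0, at oestrus, than on day 7, and listed oestrogen-responsive genes moved in both directions. Of 10 measured members, 1 rose and 5 fell in SE endometrium, where 26% of all probe sets rose and 24.1% fell. In HE endometrium 2 rose and 3 fell, near the 21.8% and 23.2% of all probe sets. The median changes were -1.11 in SE and -0.26 in HE. OXTR, the oxytocin receptor, averaged 6.43 ± 1.09 in SE endometrium on day 7, against 12.32 ± 0.24 on day 0 (SD, n = 3 each). It fell by 5.89 in SE and by 5.65 in HE (adjusted p = 6.79e-06 and 2.6e-05). AGR2 fell by 4.0 in SE and by 2.66 in HE, and CCND1, a cyclin that drives entry into the cell cycle, fell by 1.18 in SE and by 1.38 in HE (adjusted p of both genes at most 0.0138). MYC, a growth regulator, fell by 1.04 in SE (adjusted p = 0.0417) and differed by -0.44 in HE (adjusted p = 0.432). The brighter LTF probe set fell by 1.30 in SE (adjusted p = 0.0459) and differed by 0.02 in HE (adjusted p = 0.977), while the other LTF probe set differed by -1.43 in SE and did not pass (adjusted p = 0.0722).

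ESR2, the second oestrogen receptor, rose by 4.41 in SE and 4.47 in HE endometrium (adjusted p = 1.55e-07 and 4.59e-07). Its day 0 means, 2.49 in SE and 2.31 in HE, lay under the filter at log2 4. CCN1, a matrix protein, rose by 2.82 in HE endometrium (adjusted p = 0.00248) and differed by 0.54 in SE (adjusted p = 0.399). On day 0 the 10 measured oestrogen-responsive genes differed between SE and HE by -0.19 to 0.98, with a median of 0.32 and 0 called. OXTR, at 12.59, 12.17 and 12.19 in SE and 12.55, 12.67 and 12.26 in HE, overlapped between the groups on day 0.

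Luteal-phase genes included some of the largest changes of either sign. LPL, which frees fatty acids from lipoproteins, rose by 7.81 in SE and 6.87 in HE endometrium. DGAT2, which makes triglycerides, rose by 6.48 in SE and 5.52 in HE, and FKBP5, a chaperone induced by steroid hormones, rose by 3.13 in SE and 3.27 in HE. The rises of LPL and DGAT2 exceeded that of PDZK1 in HE endometrium, and in SE endometrium the 3 genes lay between 6.45 and 7.81. On day 0, though, LPL averaged 2.54 in SE and 2.67 in HE, and FKBP5 averaged 2.31 and 2.61. Both lay under the filter at log2 4 on that day. DGAT2 averaged just under it, at 3.995 in SE and 3.992 in HE, with pools on both sides of it. The sizes of these rises therefore depend on the low end of the scale, most of all for LPL and FKBP5. Against the name of the list, RBP4 (a retinol carrier) fell by 7.62 in SE and by 8.13 in HE. HSD11B1, which restores active glucocorticoid, fell by 4.55 in SE and by 5.05 in HE, and CST6, a protease inhibitor, fell by 3.68 in SE and by 4.02 in HE. STC1, a secreted glycoprotein, fell by 3.05 in SE and by 4.24 in HE, and HIF1A, a factor of the low-oxygen response, fell by 1.24 in SE and by 1.38 in HE. Adjusted p for these 8 genes was at most 0.000259 in limma's test, and SLC5A1, a glucose carrier, also fell in SE by 1.14 (adjusted p = 0.0212). On day 7 RBP4 averaged 3.66 in SE and 3.64 in HE, HSD11B1 2.80 and 2.48, and STC1 2.60 and 2.81, all under the filter.

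**Figure D4:**
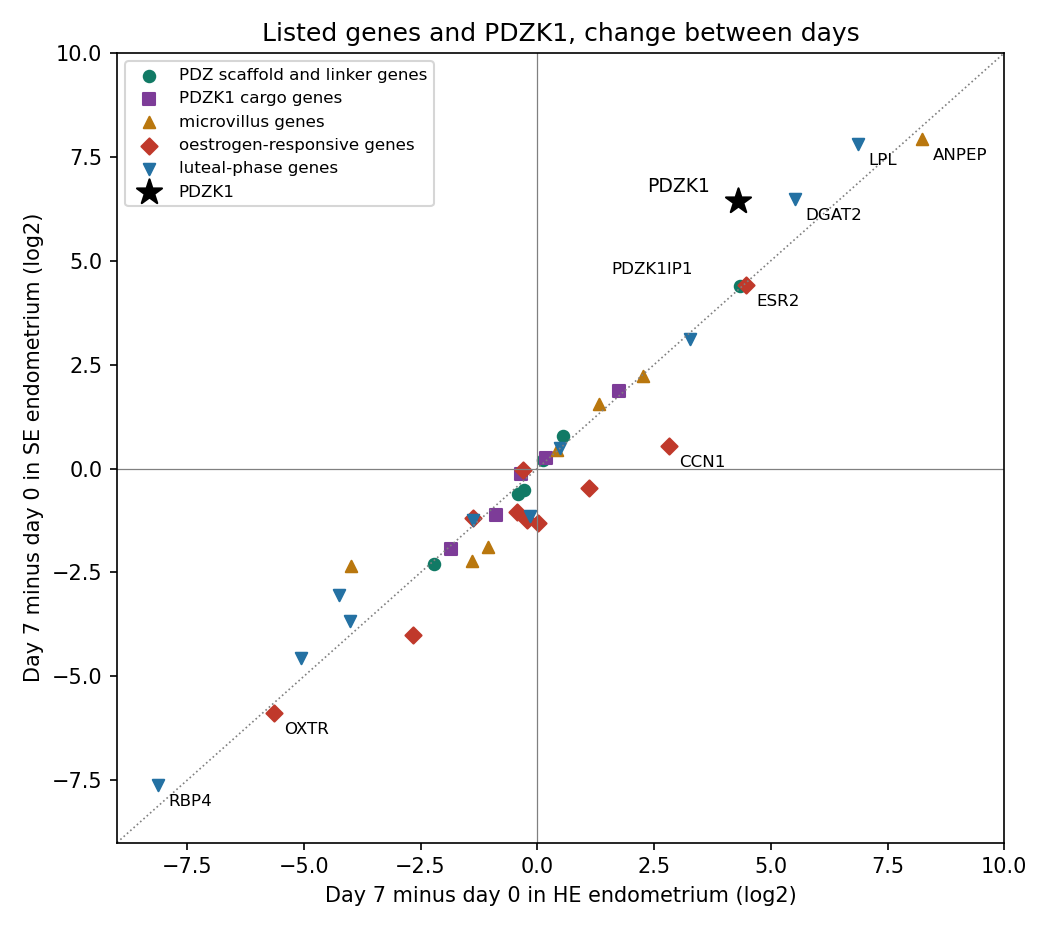
Change between days of the 38 measured list genes and of PDZK1 (log2), in HE endometrium on the horizontal axis and in SE endometrium on the vertical axis. The dotted line marks equal change. PDZK1, at 4.31 and 6.45, lies above it, and PDZK1IP1 and ESR2 lie on it near 4.4.

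On day 0 STC1 was the list gene with the smallest p between SE and HE. It read 5.26, 5.26 and 6.44 in SE pools, against 7.31, 6.61 and 7.24 in HE pools, a difference of -1.40 with no overlap that did not pass (adjusted p = 0.435). RBP4 followed, at 11.23, 11.28 and 11.32 in SE and 11.78, 12.06 and 11.45 in HE (difference -0.49, adjusted p = 0.608). On day 7 the SE minus HE differences of smallest p were 0.82 for LPL, -1.68 for CCN1 and 0.96 for DGAT2, all with an adjusted p of 1.

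The genes most like PDZK1 over the 11 endometrium arrays were found among 6809 genes kept with a single symbol. The arrays share day and status, so these correlations describe the pattern and carry no p: 1019 of the 8642 probe sets compared had a Pearson r above 0.9 and 779 had one below -0.9. The 8 genes of highest r were WNT11 (0.993), NIPSNAP3A (0.9904), PLCG1 (0.989), SLC39A8 (0.988), DDHD2 (0.988), PDCL (0.988), RABGGTA (0.987) and C4H7orf25 (0.986). Ranked by Spearman rho instead, 1 of these 8 stayed among the first 8. WNT11, a secreted Wnt ligand, was at 2.55, 2.57 and 3.34 in SE pools of day 0, against 4.25, 3.81 and 4.05 in HE pools. On day 7 it was at 7.45, 7.36 and 7.79 in SE and at 7.19 and 7.75 in HE pools. Like PDZK1, WNT11 was lower in every SE pool of day 0 and overlapped between the groups on day 7. It was picked for its likeness over these same arrays, so the shared pattern follows from that choice. Its day 0 difference of 1.22 was smaller and not called, and its SE values of that day lay under the filter at log2 4.

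By distance between the 2 centred profiles, the nearest genes were PLLP (1.81), PTGIS (2.03), TRIM45, MCOLN2, MYH7, ACMSD, SLC39A8 (2.27) and NAALAD2 (2.29), in log2 units summed over arrays as a root of squares. SLC39A8, an importer of zinc and manganese, was the 1 gene on both lists. It read 8.42, 8.95 and 7.92 in SE pools of day 0, against 9.84, 9.24 and 9.54 in HE pools, and it rose by 4.95 in SE and 3.78 in HE by day 7. PLLP, a membrane protein of myelin and epithelia and the nearest gene by this distance, rose by 5.46 in SE and 4.70 in HE. PTGIS, which makes prostacyclin, rose by 5.64 in SE and 5.18 in HE, with day 0 pools that overlapped between SE and HE.

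The genes of lowest r were PPIC (-0.9896), QPCTL, GALNT1, PLAUR and ARHGEF2 (-0.981). PLAUR, the urokinase receptor, fell by 4.70 in SE and by 3.76 in HE, and its day 0 difference between SE and HE, 1.43, did not pass (adjusted p = 0.473). Over the 6 day 0 arrays alone the highest r belonged to MSX1 (0.992), TMLHE (0.991), PATL1 (0.983), ATMIN (0.982) and NEK9 (0.981). Of these, PATL1 and MSX1 also had a high r over all 11 arrays, 0.979 and 0.949, and the other 3 had a negative one.

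**Figure D5:**
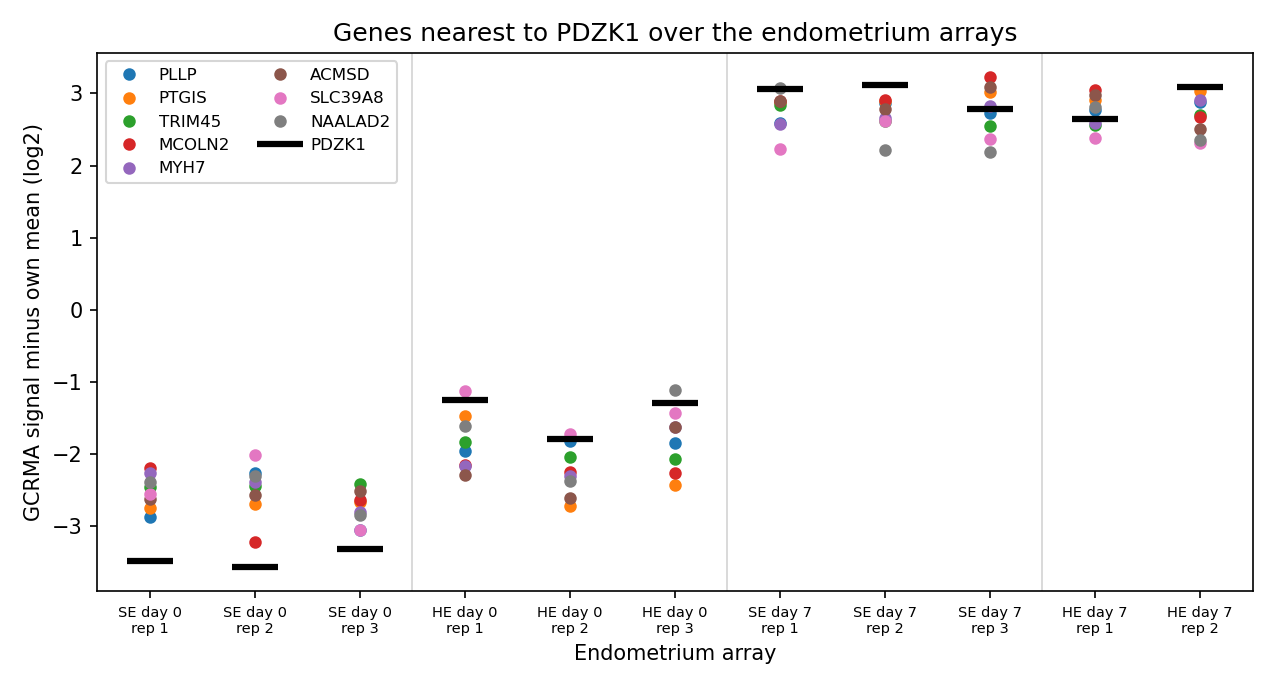
PDZK1 (black bars) and the 8 genes of smallest distance to it in each endometrium pool, as GCRMA signal minus each gene's own mean over the 11 arrays (log2). In the SE pools of day 0 PDZK1 lies below all 8, and on day 7 it lies among them or at the top.

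Of 6 measured genes near PDZK1 on chromosome 3, CHD1L alone rose between days in both SE and HE endometrium. Over all probe sets 26% rose and 24.1% fell in SE, and 21.8% rose and 23.2% fell in HE endometrium. GPR89A, a membrane protein of the Golgi, overlaps PDZK1 in the RefSeq table, and its own probe set averaged 8.84 ± 0.25 in SE and 8.86 ± 0.22 in HE endometrium on day 0 (SD, n = 3 each). It fell between days by 0.86 in SE and by 1.21 in HE (adjusted p = 0.00262 and 0.000836). NUDT17 fell by 0.94 in SE and fell by 1.40 in HE. ACP6 fell by 1.53 in SE and fell by 1.72 in HE, while PIAS3 was called in neither (differences of -0.10 in SE and -0.14 in HE). POLR3C, a subunit of RNA polymerase III, fell by 0.92 in HE (adjusted p = 0.00145) and differed by -0.35 in SE (adjusted p = 0.0747). CHD1L, a chromatin remodeller, rose by 1.61 in SE and 1.31 in HE, and the adjusted p of NUDT17, ACP6 and CHD1L was at most 0.00469. None of these 6 was called between SE and HE on day 0.

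Summed levels of cell type markers on day 0 differed in range between the SE and HE arrays for some lists, though 0 markers were called. The 9 epithelial markers on the array summed to 95.2 to 96.2 in SE pools, against 93.3 to 94.7 in HE pools, with 5 of the 8 kept markers higher and 3 lower in SE by group mean. Ciliated cell markers (4 on the array) summed to 24.6 to 31.6 in SE and 20.6 to 23.5 in HE. Macrophage markers (5) summed to 29.6 to 31.4 in SE and 27.4 to 28.6 in HE, and lymphocyte markers (6) to 41.3 to 45.3 in SE and 38.8 to 40.9 in HE. Neutrophil markers (5) summed to 32.9 to 42.0 in SE and 25.0 to 34.1 in HE, and stromal markers (8) to 69.6 to 77.3 in SE and 61.6 to 72.8 in HE, overlapping in both. The part of these markers in the PDZK1 difference was not tested. On day 7, where PDZK1 was high, the epithelial sum was 84.4 to 84.9 in SE and 87.1 to 87.3 in HE endometrium. Between days 26% of all probe sets rose and 24.1% fell in SE, and 21.8% rose and 23.2% fell in HE endometrium. Of the 8 kept epithelial markers 2 rose and 6 fell in SE, and 2 rose and 5 fell in HE endometrium. The endothelial markers PECAM1, TEK, VWF and CDH5 were on the array but did not pass the filter in endometrium. CLDN5, the 1 kept endothelial marker, rose by 3.39 in SE and 4.21 in HE. Of 6 lymphocyte markers 2 rose in each, and of 3 kept neutrophil markers 1 fell in each. Of 5 macrophage markers 1 rose and 1 fell in SE, and 2 rose and 1 fell in HE. In SE endometrium 1 of 3 ciliated and 1 of 8 stromal markers also fell, and in HE 0 of either was called. The part of these markers in the PDZK1 rise was not tested.

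As a measure of RNA quality, the 3' minus 5' signal of 6 control transcripts was compared on day 0. That of eIF-4E lay between 3.88 and 4.27 in SE, against 3.70 to 3.85 in HE pools, and that of ef1a between -3.10 and -2.93 in SE, against -3.27 to -3.11 in HE pools. The other 4 overlapped. On day 7 eIF-4E was again higher in SE, at 4.05 to 4.52 against 3.67 to 3.91 in HE. Some of these values also separated the days. In SE endometrium actin lay between -0.477 and -0.441 on day 7, against -0.433 to -0.418 on day 0, and GST between -1.58 and -1.10 on day 7, against -2.19 to -1.59 on day 0. In HE endometrium actin lay between -0.447 and -0.443 on day 7, against -0.442 to -0.343 on day 0, and gapd between 0.273 and 0.389 on day 7, against 0.0560 to 0.141 on day 0. That of ef1a in HE lay between -3.06 and -2.94 on day 7, against -3.27 to -3.11 on day 0. In blastocysts gapd lay between 5.47 and 5.85 in pools from SE donors, against 4.97 to 5.11 in pools from HE donors. There ef1a lay between 2.07 and 2.36 for SE donors, against 1.41 to 2.03 for HE donors, and the other controls did not separate these groups. The part of RNA quality in the PDZK1 differences was not tested.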

How the data were processed

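Per the labels' protocols, 15 ng of RNA went through 2 amplification rounds before biotin labelling. The authors deposited log2 signals, 1 per probe set and array, and GCRMA and limma are listed in the submitters' processing notes, without versions or what each was used for. The sources do not say if the tissues were normalized jointly. Gene names came from the platform annotation: 13292 probe sets had 1 symbol, 86 several and 10638 none here, and 112 controls were left out of tests.

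A probe set was kept when above log2 4 on at least 2 arrays of a tissue, 13421 in endometrium and 11014 in blastocysts. Group means were fitted with limma 3.58.1 (R 4.3.3), separately for the 11 endometrium and the 5 blastocyst arrays. Two-sided tests were used, with Benjamini-Hochberg adjustment over all kept probe sets and a threshold of 0.05. The code was tested on simulated data. Figures used Python 3.11.15, pandas 2.3.3 and matplotlib 3.10.9. The number of arrays limits the precision. In blastocysts 272 of 10861 probe sets averaging above 4 had an identical value on all 3 SE arrays.

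PDZK1 and the lists were chosen with earlier results of these data known. Named genes are kept list members, by smallest p, the 8 of highest r, the 8 of smallest distance and the 5 of lowest r with PDZK1, the 5 of highest r on day 0, and the measured chromosome neighbours. Replicate numbers were not taken to pair samples in the main fit, and deviations of same-numbered arrays correlated from -0.253 to 0.229. The sample labels do not name the cows in each pool. Pools of the 2 days may therefore share cows, which the tests between days do not take into account.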

Additional observations from a re-analysis of the deposited data

How the results depend on the processing

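The alternatives were no filter, a filter at log2 5, further quantile normalization, array weights, a fit of the compared groups alone, the replicate block and leaving out each pool in turn. Under those run for each result, the PDZK1 day 0 difference stayed between -2.18 and -1.91, the SE day change between 6.37 and 6.55 (adjusted p 1.4e-08 to 3.09e-06), the HE day change between 4.09 and 4.53 (adjusted p 3.83e-07 to 0.00015) and, without a fit of the compared groups alone, the difference of the changes between 1.92 and 2.36. Counts of list genes called were run with no filter, quantile normalization, the replicate block and each pool left out, and not with the other alternatives. They ran from 10 to 11 higher and 14 to 19 lower in SE, and 10 to 11 higher and 10 to 12 lower in HE endometrium. The day 7 SE minus HE difference, 0.13, ran from -0.0951 (without HE replicate 1) to 0.348 with 1 pool left out. The blastocyst difference, -0.18, was 0.279 with the replicate block and ran from -1.10 to 0.284 with 1 pool left out: 0.181 without HE replicate 2, 0.284 without SE replicate 2 and 0.279 without SE replicate 3, none past the threshold. The replicate block changed no call for PDZK1, and list calls were 10 higher and 17 lower in SE and 10 higher and 11 lower in HE endometrium with it. Ranked by Spearman rho, 1 of the 8 genes of highest r remained. A second PDZK1 probe set was to be tried and was not run, since 1 exists. With 2 HE pools on day 7 and in blastocysts, small differences were not detectable.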
